A study of Mus musculus with 11 samples.

Results

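H3K4me1, histone H3 carrying a single methyl group on lysine 4, was mapped by chromatin immunoprecipitation and sequencing (ChIP-seq) in cells of a mouse T-cell leukaemia, 8946. Every segment of the deposited H3K4me1 list was taken, which gave 46130 of the 158769 regions in all the lists of the series. Segments were set against 21887 protein-coding genes of the mm10 build. For each gene the window was its annotated span with 50 kb on either side, and the number of segments, the covered length and the distance to the ends of the span were counted.

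H3K4me1 is placed mainly by the methyltransferases Kmt2c and Kmt2d, also known as MLL3 and MLL4. It marks enhancers, both poised and active, and flanks active promoters, where the trimethylated form H3K4me3 occupies the start of transcription. In T-cell leukaemias driven by Notch1, the intracellular part of Notch1 acts through the DNA-binding protein Rbpj, often at enhancers that carry this mark.

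The 8946 cells, labelled T-lymphoblast, were transduced with 2 retroviruses and sorted for both markers, per the labels. The line used for the histone libraries carried Flag-Zmiz1, a tagged PIAS-like coactivator of Notch1, together with the activated Notch1 allele L1601PDP, and is called the Flag line here. A second line carried HA-Zmiz1 and the activated allele DEGFDLNRDP, and is called the HA line. Of the 11 samples, the Flag line gave H3K4me1, H3K4me3, both H3K27 libraries, Rbpj, Flag-Zmiz1, ICN1 (the intracellular part of Notch1) and input, and the HA line gave HA-Zmiz1, ICN1 and input. Both lines therefore carry ectopic Zmiz1 and ectopic active Notch1, and no library came from cells without them. Histone samples were fixed with formaldehyde alone and the H3K4me1 antibody was Abcam ab8895. Factor samples were fixed with DSG as well. There was 1 library per target and line, so no difference below can be set against a spread between replicates, and none was tested. Intervals given are exact (Clopper-Pearson) 95% binomial intervals. They cover counting error only, and neighbouring genes or segments are not independent.

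Both H3K27 libraries go against their labels. Of the 20 housekeeping genes examined, 19 had an end under the library labelled H3K27me3 and 0 under the library labelled H3K27ac. Of the 30 developmental genes, 1 had an end under the former and 26 under the latter. Over all genes the shares were 43.1% and 18.9%. H3K27ac is known at active promoters and enhancers and H3K27me3 at silent developmental genes, so each library is named below only by its label.

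The H3K4me1 segments held 10598544 reads of the precipitation and 4731253 reads of the control. The list does not name the input library behind the control. Segments were deposited with a fold, the ratio of the 2 read counts after the control had been multiplied by a library factor of 0.808. A median segment held 118 H3K4me1 reads and 64 control reads, and the lowest counts in any segment were 27 and 3. Marker genes were read against the T-lymphoblast label. All 14 T-cell markers had a segment within 50 kb and 13 had one over an end, against 5 and 2 of 6 B-cell markers and 6 and 1 of 6 myeloid markers. Over all genes the background was 74.1% within 50 kb and 23.8% over an end. Some T-cell markers, such as Cd3d, Cd3e and Cd3g, are neighbours and share segments.

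H3K4me1 covered 197 Mb, or 7.30% of the sequence between the outermost genes of the chromosomes. The median segment was 2.8 kb wide and widths ran from 400 to 120600 bp. Median H3K4me1 density was 44.1 reads per kb with quartiles of 36.1 and 55.0, and the median control density in the same segments was 22.9 reads per kb. Fold had a median of 2.43 and a highest value of 15.7, so most of the list lay at a modest enrichment. In 980 segments, 2.12% of the list, the fold was under 1.5. Segments also lay close together. Of the 46109 gaps between neighbours, 45.5% were at most 5 kb, and the smallest gap was 600 bp.

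A small part of the segments held much of the coverage. The 728 segments of 20 kb or more were 1.58% of the list and 11.2% of the covered length, and the 2603 segments of 10 to 20 kb held another 17.7%. Segments of 2 to 5 kb were the most numerous, with 22991 members and 35.8% of the covered length. Density did not follow width in one direction. Median H3K4me1 density was 56.3 reads per kb in segments under 1 kb, 40.6 at 2 to 5 kb and 74.9 at 20 kb or more. The control had medians of 22.3 to 26.1 reads per kb over all 6 width classes. Width and density are not independent measures here, since a segment ends where its reads fall below the threshold of the caller.

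**Figure D1:**
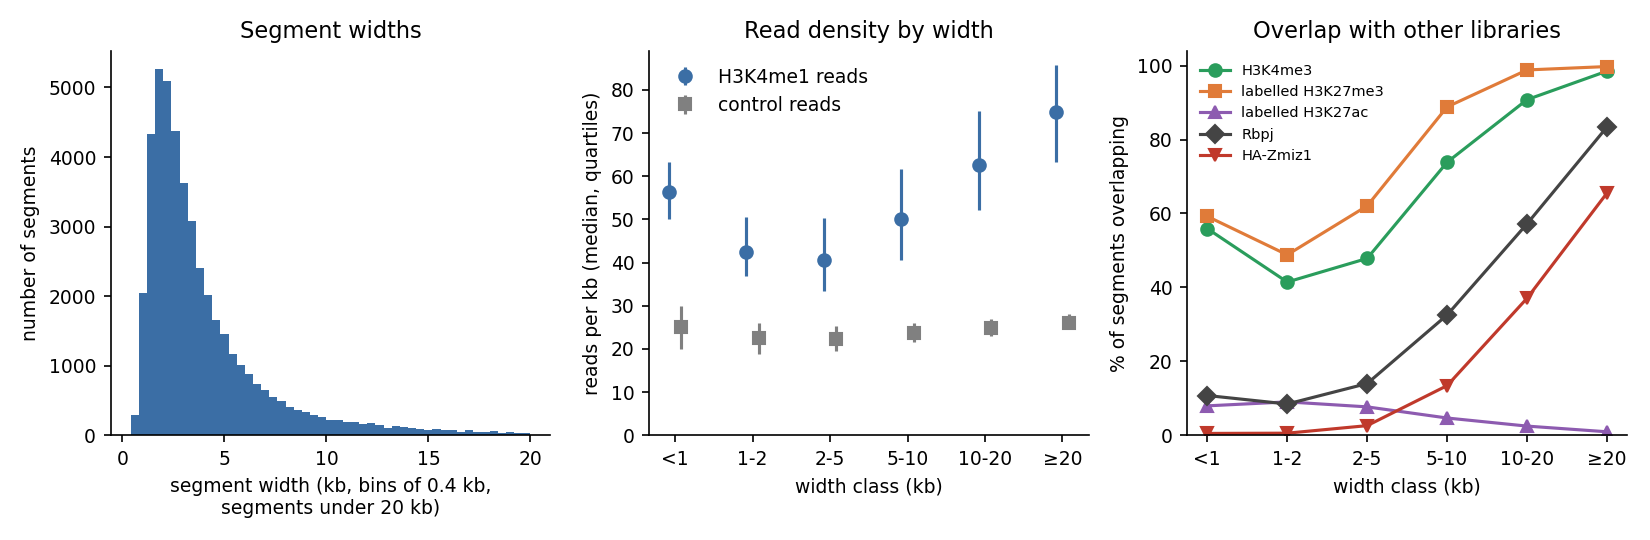
Left, number of H3K4me1 segments by width (0.4 kb bins, widths under 20 kb); centre, median reads per kb with quartiles in the H3K4me1 and control libraries by width class; right, percent of the segments of each width class that overlap other libraries. Median H3K4me1 density was 40.6 reads per kb at 2 to 5 kb and 74.9 at 20 kb or more, and the share overlapping H3K4me3 was 98.5% in the widest class.

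Most H3K4me1 segments lay away from the ends of genes. Only 5007 of 46130, or 10.9%, covered an end of a protein-coding gene, while 23473 lay inside a gene span without reaching an end and 17650 lay between genes. The median distance to the nearest end was 9.94 kb, with quartiles of 0.655 and 41.2 kb. Of all segments, 30.2% lay within 5 kb of an end without covering it, 37.2% between 5 and 50 kb away and 21.7% beyond 50 kb. Median fold lay close together at all distances, at 2.38 over ends, 2.44 within 5 kb, 2.42 at 5 to 50 kb and 2.46 beyond. The marked sequence was nevertheless denser near genes. The sequence within 5 kb of an end made up 12.2% of the genome and 28.2% of the covered length, and gene spans made up 38.4% and 60.4%.

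Nearly all H3K4me3 sites met H3K4me1, while many H3K4me1 sites had no H3K4me3. H3K4me3 overlapped 24982 H3K4me1 segments, or 54.2%, while 92.6% of the 26767 H3K4me3 segments overlapped H3K4me1 by at least 1 bp. H3K4me1 segments with H3K4me3 had a median width of 3.6 kb and a fold of 2.67, against 2.4 kb and 2.18 for the 21148 without it. The share with H3K4me3 was 86.5% over gene ends, 79.4% within 5 kb, 36.2% at 5 to 50 kb and 33.6% beyond 50 kb. A wide segment has more sequence in which to meet another mark, so width and an overlap by 1 bp are not independent.

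The library labelled H3K27me3 overlapped 66.1% of H3K4me1 segments and the library labelled H3K27ac 7.11%. The largest combination was H3K4me3 with the library labelled H3K27me3 alone, with 21489 segments at a median of 0.910 kb from a gene end. The library labelled H3K27me3 without the other marks met 7919 segments, at a median of 26.5 kb from an end. None of the other histone libraries met 12094 segments, or 26.2%. These H3K4me1-only segments were narrow (median 2.2 kb), weak (median fold 2.10) and lay at a median of 23.8 kb from an end, and 2.46% of them overlapped an Rbpj peak, against 19.3% of all segments.

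Binding of Notch1 partners was commoner in the wide segments. An Rbpj peak overlapped 8.47% of segments of 1 to 2 kb, 32.5% at 5 to 10 kb and 83.4% at 20 kb or more. Long segments have more room for a peak, so summits were also counted per Mb of segment. Rbpj summits numbered 52.2 per Mb under 1 kb, 40.9 per Mb at 1 to 2 kb and 77.7 per Mb at 20 kb or more. For HA-Zmiz1, mapped in the HA line, density was 4.24, 3.50 and 43.2 per Mb in the same classes, a wider spread than for Rbpj. ICN1 of the HA line gave 1.41, 0.500 and 4.86 summits per Mb. These ICN1 values rest on 1, 8 and 107 summits, and the HA-Zmiz1 value under 1 kb on 3. Of the 8 ICN1 summits at 1 to 2 kb, 5 lay in 1 segment on chromosome 2. That segment had 716 H3K4me1 and 729 control reads per kb. The 3173 segments with an HA-Zmiz1 peak, 6.88% of the list, had a median width of 9.0 kb and 68.8 H3K4me1 reads per kb. ICN1 met 296 segments (0.642%), with a median width of 13.0 kb and a fold of 3.44. H3K4me1, H3K4me3, the library labelled H3K27me3, Rbpj and HA-Zmiz1 came together in 2425 segments of median width 10.6 kb. The factor and histone libraries differ in fixation, and HA-Zmiz1 and ICN1 also in line, and the part of either in these counts was not tested.

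The arrangement at transcription starts was read from RefSeq starts, which were matched for 17492 genes, 79.9% of those counted, with none on chromosome 18. Where the table gives a gene several starts, the outermost was used. Of these starts, 77.4% lay within 100 bp of the end of the gene span and 9.95% lay more than 1000 bp inside it. H3K4me3 covered 8467 of these starts (48.4% of 17492) and H3K4me1 covered 2507 (14.3%). Around the starts under H3K4me3, H3K4me1 formed 2 shoulders and a dip. At 1.0 kb before the start, 68.5% of the positions were covered by H3K4me1, at the start itself 25.3% (interval 24.4 to 26.3%), and at 1.4 kb after it 78.4%. Coverage was 30.9% at 5 kb and 17.9% at 20 kb after the start. H3K4me3 was broader over the start than the dip, and covered 58.5% of positions at 1 kb before and 87.1% at 1 kb after. Among the 9025 starts without H3K4me3 there was no such shape, and H3K4me1 covered 4.01% at the start and at most 6.53% within 20 kb. At the far end of genes of at least 20 kb with a marked start, coverage was 11.8% at the end itself, 8.96% at 5 kb before it and 17.4% at 5 kb after it.

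The dip was narrow. Of the 5691 starts under H3K4me3 with H3K4me1 near but not over them, 4491 had a segment on both sides within 5 kb, 280 only before and 920 only after the start. Where both sides were marked, the stretch free of H3K4me1 had a median width of 1.0 kb with quartiles of 0.8 and 1.4 kb. Segment edges fall on a 200 bp grid and the smallest gap in the list is 600 bp, which limits this width. A start in a narrower dip would count among those that H3K4me1 covers. The start sat off its middle, at a median of 0.383 kb from the segment before it and 0.601 kb from the segment after it. In 4321 of the 4491, or 96.2%, the whole stretch lay under an H3K4me3 segment.

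The starts therefore fell into classes. H3K4me3 with H3K4me1 within 5 kb but not over the start was the larger marked class, with 5691 starts, and 97.0% of these were also under the library labelled H3K27me3 and 84.9% had an Rbpj summit within 1 kb. Both marks covered 2145 starts, of which 60.8% had an Rbpj summit within 1 kb. At 631 starts H3K4me3 had no H3K4me1 within 5 kb, and 48.5% of these lay under the library labelled H3K27ac. Over all 17492 starts, 43.9% lay under the library labelled H3K27me3 and 15.4% under the library labelled H3K27ac. An Rbpj summit lay within 1 kb of 36.7% of all starts. H3K4me1 alone covered 362 starts. Of the starts with neither mark over them, 1006 had H3K4me1 within 5 kb and 7657 had none.

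Base composition moved with the dip. Starts under H3K4me3 were divided into 5 groups of similar size by the number of CpG dinucleotides in the 250 bases before the start. H3K4me1 covered 885 of 1817 starts with 0 to 10 CpG, or 48.7% (interval 46.4 to 51.0%). In the following groups the share was 29.5%, 21.1% and 14.8%. With 26 to 56 CpG it was 159 of 1664, or 9.56% (8.19 to 11.1%). The H3K4me3 segment over the start was also wider where CpG was dense, with a median of 2.8 kb in the lowest and 3.8 kb in the highest group, and its fold was 13.5 and 15.2. The part of base composition in read recovery was not tested.

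**Figure D2:**
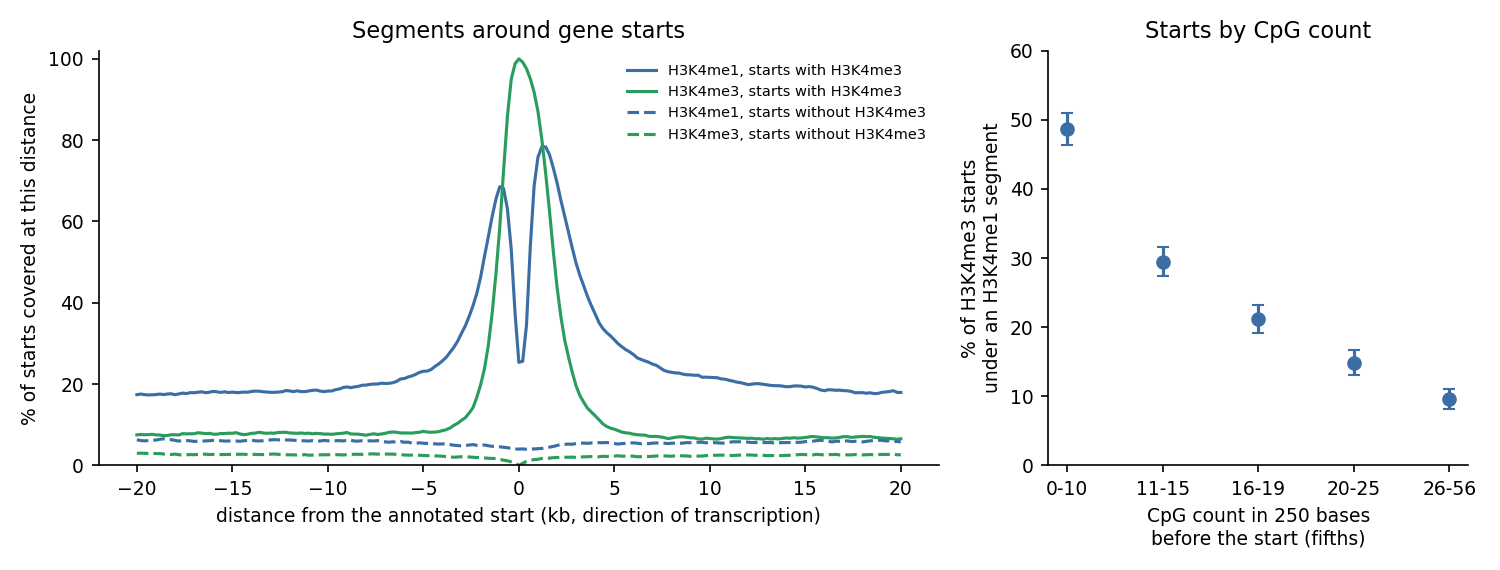
Left, percent of starts covered by H3K4me1 and H3K4me3 at each position from 20 kb before to 20 kb after the start in the direction of transcription, for starts under H3K4me3 (solid) and without it (dashed); right, percent of H3K4me3 starts that H3K4me1 also covers, by group of CpG number, with 95% binomial intervals. H3K4me1 dips to 25.3% at marked starts, and its share at the start runs from 48.7% in the group poorest in CpG to 9.56% in the richest.

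Single promoters show the arrangements. The sequences that follow are the 250 bases before the start used, 5' to 3' on the strand of the gene, from RefSeq on GRCm38.p6 (the assembly behind mm10), with every CpG in capitals. All 6 starts lie within 100 bp of the end of the gene span. Cd8a (chr6:71373177-71373426, plus strand), a co-receptor gene, and Il7r (chr15:9529877-9530126, minus strand), the interleukin 7 receptor, are shown as starts that H3K4me1 covers together with H3K4me3. They hold 0 and 1 CpG.
Cd8a: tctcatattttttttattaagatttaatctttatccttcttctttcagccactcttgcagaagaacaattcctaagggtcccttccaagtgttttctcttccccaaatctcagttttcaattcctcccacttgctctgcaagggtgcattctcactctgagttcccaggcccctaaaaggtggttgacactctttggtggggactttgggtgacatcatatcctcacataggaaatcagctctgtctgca
Il7r: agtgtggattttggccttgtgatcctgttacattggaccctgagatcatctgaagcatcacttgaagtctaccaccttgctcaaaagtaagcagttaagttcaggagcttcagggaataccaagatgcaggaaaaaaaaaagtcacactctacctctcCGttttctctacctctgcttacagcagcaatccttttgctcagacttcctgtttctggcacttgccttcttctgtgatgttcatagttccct
Igf1r (chr7:67952007-67952256, plus strand), a growth factor receptor, and Kmt2c (chr5:25498784-25499033, minus strand), a methyltransferase of H3K4, are shown as starts under H3K4me3 with H3K4me1 near but not over them. They hold 42 and 48 CpG, and the nearest H3K4me1 segment lay 143 bp and 784 bp from the start.
Igf1r: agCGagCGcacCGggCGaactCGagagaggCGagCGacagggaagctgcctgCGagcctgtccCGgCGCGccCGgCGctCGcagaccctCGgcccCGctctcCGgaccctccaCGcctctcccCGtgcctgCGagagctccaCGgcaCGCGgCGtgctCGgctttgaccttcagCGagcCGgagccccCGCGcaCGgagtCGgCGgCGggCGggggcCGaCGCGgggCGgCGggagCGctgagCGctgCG
Kmt2c: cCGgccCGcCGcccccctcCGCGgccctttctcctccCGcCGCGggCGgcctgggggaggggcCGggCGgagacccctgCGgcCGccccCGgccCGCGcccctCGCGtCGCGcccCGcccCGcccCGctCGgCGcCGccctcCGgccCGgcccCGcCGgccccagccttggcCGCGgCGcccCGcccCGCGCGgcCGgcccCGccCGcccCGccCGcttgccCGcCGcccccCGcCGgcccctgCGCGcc
The relation has exceptions. Runx1 (chr16:92826075-92826324, minus strand), a core transcription factor of blood cells, lay in a gap with 2 CpG and a segment 126 bp away. Nrarp (chr2:25180508-25180757, plus strand), a feedback inhibitor of Notch, was covered by both marks with 18 CpG.
Runx1: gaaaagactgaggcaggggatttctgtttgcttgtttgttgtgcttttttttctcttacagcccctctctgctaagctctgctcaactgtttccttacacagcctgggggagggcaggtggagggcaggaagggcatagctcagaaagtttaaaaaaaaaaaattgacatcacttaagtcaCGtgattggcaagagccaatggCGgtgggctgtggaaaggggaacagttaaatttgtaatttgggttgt
Nrarp: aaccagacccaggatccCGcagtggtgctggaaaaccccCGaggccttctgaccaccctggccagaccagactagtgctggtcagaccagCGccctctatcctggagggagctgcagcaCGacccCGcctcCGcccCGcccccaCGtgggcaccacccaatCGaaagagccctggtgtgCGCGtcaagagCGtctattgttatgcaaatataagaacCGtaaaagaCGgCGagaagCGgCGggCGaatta

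Starts were also counted by class in the gene lists. The T-cell receptor and surface list also holds the recombination genes Rag1, Rag2 and Dntt. Of its 18 matched starts, 16 lay under both marks, and the others, Cd3e and Lat, had a segment within 0.232 kb. The promoters of the list held 0 to 7 CpG with a median of 3. Of 19 starts of T-lineage regulators, 15 lay under H3K4me3 in a gap of H3K4me1, and Zbtb7b and Id3 were covered by both, with a median of 18 CpG. The innermost start of the table was also used in place of the outermost. The starts under both marks were then 14 for the receptor and surface list, 6 for the regulators and 2 for the housekeeping genes. By the outermost starts, all 15 gaps of the regulators had segments on both sides and a median width of 2.4 kb. Over all genes this width was 1.0 kb and for housekeeping genes 1.4 kb. Among 17 housekeeping starts, 16 lay under H3K4me3 with H3K4me1 within 5 kb, and 13 of these had segments on both sides. Only 1 (Gusb) was covered by both marks, and the list had a median of 17 CpG. The Notch pathway genes did not divide in this way. Of their 22 starts, 9 lay under H3K4me3 with H3K4me1 within 5 kb, 8 of these with segments on both sides. Another 5 lay under both marks. The list had a median of 18 CpG, and the starts under both marks held 14 to 25 CpG. The median H3K4me3 segment over the start was 8.0 kb wide in the receptor and surface list and 8.8 kb at the regulators. The letters GTGGGAA, the core of the Rbpj motif, or their reverse complement TTCCCAC were present in the 250 bases of 5.25% of all starts. The share was 6.34% where both marks covered the start and 4.66% where H3K4me1 lay near a start under H3K4me3. It was highest, at 8.24%, at H3K4me3 starts with no H3K4me1 within 5 kb. Without H3K4me3 it was 4.70% under H3K4me1, 5.86% with H3K4me1 within 5 kb and 5.08% with neither.

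Most genes had H3K4me1 nearby, but few had much of it. A segment lay within 50 kb of 16224 of 21887 genes, or 74.1% (73.5 to 74.7%). A segment covered an end of 5210 genes, or 23.8% (23.2 to 24.4%), and both ends of 809. At least 50% of the window was covered for 544 genes, or 2.49%. The median gene had 4 segments and 11.6 kb of coverage, or 8.64% of its window, and the upper 1% of genes had 62.3% or more. The 5663 genes with no segment were short, with a median length of 7.08 kb. Length moved with the counts. With genes in 5 groups of equal size by length, 47.7% of those under 4.17 kb had a segment within 50 kb, against 76.3 to 83.6% in the longer groups. The median number of segments was 0 in the shortest group, 4 in the next and 5 in each of the 3 longest. The median covered share was 0, 11.2%, 11.5%, 10.5% and 7.45% in the same order.

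Covered length over genes ran with that of H3K4me3 and of the library labelled H3K27me3. Across 21887 genes the Spearman correlation of H3K4me1 coverage was 0.957 with the library labelled H3K27me3, 0.920 with H3K4me3 and 0.155 with the library labelled H3K27ac. These are descriptions across genes that share windows and a cell line, and genes are not independent.

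Counted in covered length, the leading genes were long ones. Exoc4, a subunit of the exocyst, had 73 segments and 386 kb, or 46.8% of its window, and Foxp1, a forkhead factor of lymphocytes, had 288 kb. Sugct, Ncald, Tcf12 (the E protein HEB), Sbf2, Igf1r (the insulin-like growth factor 1 receptor), Nfia, Clec16a and Akap13 followed with 270 to 220 kb. Ncald lies on chromosome 15, and its segments had 34.6 control reads per kb. Counted as a share of the window, the leading genes were short and lay in a few marked stretches. Gm31513, Gm46319, Arsi, Sla and Pgpep1l had 94.8 to 91.1% covered. Sla encodes an adaptor that dampens T-cell receptor signalling, and its 91.5% was 138 kb. Sla lies on chromosome 15, and its segments had 38.2 control reads per kb, against a list median of 22.9. Socs1, a cytokine signalling inhibitor, had 89.8%, and the neighbouring sperm genes Prm1, Prm2, Prm3 and Tnp2 had 89.4 to 89.5%. Of the covered length at Socs1, 86.3% also lay in the window of Prm1, so a high share of a gene's window does not assign a segment to that gene.

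The widest segments lay at genes known in lymphocytes and at others. The widest, at 120.6 kb (chr5:118561800-118682399), covered sequence at Med13l, a subunit of the Mediator kinase module, with 96.8 H3K4me1 and 24.9 control reads per kb and a fold of 4.80. It held 11 Rbpj summits and 4 HA-Zmiz1 summits. The next was 108.0 kb (chr2:101539400-101647399) and reached over Iftap, Rag2 and into Rag1, the latter pair encoding the recombinase of antigen receptor genes, with 92.2 and 28.2 reads per kb, 8 Rbpj summits and 5 HA-Zmiz1 summits. Others lay at Fmnl2 (100.8 kb), at Rhoh, a GTPase of T-cell receptor signalling, with Chrna9 (95.4 kb), and at Mad1l1 (94.6 kb). Further ones lay at Pip4k2a (84.4 kb), Prkcb (76.4 kb), Nrip1 and Lrig1 (76.2 kb each) and Enthd1 (73.0 kb). The Enthd1 segment, on chromosome 15, had 39.3 control reads per kb. All 10 overlapped H3K4me3 and the library labelled H3K27me3, none overlapped the library labelled H3K27ac, and each held at least 1 Rbpj and 1 HA-Zmiz1 summit.

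Reads per kb without regard to the control picked out other places. A pair of segments on chromosome 2, about 1030 kb from the end of Lrrc4c, had 716 and 508 H3K4me1 reads per kb, but the control had 729 and 557, and their folds were 1.22 and 1.13. The segment at Ly6c2 was alike, with 347 H3K4me1 and 354 control reads per kb. At 4931408C20Rik the H3K4me1 density was 476 and the control 153 reads per kb, for a fold of 3.85. The other 6 segments among the 10 densest all lay on chromosome 15, at Adamts20, Xrcc6 with Snu13, Angpt1, Ly6m, Sub1 and Atxn10, with 137 to 162 H3K4me1 reads per kb and folds of 4.09 to 5.91. Control density on this chromosome was high, as given with the chromosomes below.

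The T-cell receptor and surface list carried the most H3K4me1 of the 11 lists examined, by share of the window. It also holds the recombination genes Rag1, Rag2 and Dntt. All 26 members had a segment within 50 kb, 25 had one over an end and 17 had at least 50% of the window covered. Over all genes these shares were 74.1%, 23.8% and 2.49%. The median covered share of the list was 60.3%, against 8.64% over all genes. Neighbouring members share segments, so these counts are not independent. Of the covered length at Cd3e, 81.3% also lay in the window of Cd3d and 75.5% in that of Cd3g. Of that at Cd8a, 64.5% also lay in the window of Cd8b1. Cd3e, a chain of the CD3 complex, had 94.7 kb covered (85.3%), Cd28, a costimulatory receptor, had 84.6 kb, and Lcp2, the adaptor SLP-76, had 103 kb. Ptprc (CD45), at 111 kb, had the most. Cd4, with 64.3 kb, had a share of 52.0%. Cd247, the zeta chain, was the one with no end of its span covered. The start used for Cd247 nevertheless lay under both H3K4me1 and H3K4me3. Zap70, a kinase bound to the zeta chain, had 23.2 kb (19.2%).

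Cd8a had the highest share among the T-cell markers, with 93.8 kb in 7 segments, or 88.7% of its window. The segment over its start reached from 25.2 kb before to 2.17 kb after it and had 94.9 H3K4me1 and 31.4 control reads per kb, a fold of 3.75. The segment before that was 23.0 kb wide with a fold of 4.39. After that the folds were 3.35, 4.01, 4.02, 1.41 and 2.93. So 6 of the 7 segments had more than the median fold of the list, and the one of 4.8 kb with 1.41 overlapped no other histone library. The window held 13 Rbpj and 9 HA-Zmiz1 summits.

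T-lineage regulators had a median of 48.0% of the window covered. All 26 had a segment within 50 kb, 16 had one over an end and 12 had at least 50% covered. The backgrounds over all genes were 74.1%, 23.8% and 2.49%. Tcf12 (238 kb), Runx1 (189 kb, 58.1%), Ets1 (179 kb, 80.9%), Ikzf1 (128 kb, 68.2%) and Myb (115 kb, 84.7%), transcription factors of lymphoid progenitors, stood at the top. Lef1 had 105 kb, Satb1 80.1 kb, Bcl11b, a factor of T-cell commitment, 90.8 kb and Gata3, needed for early T cells, 37.2 kb. Tal1, an oncogene of many T-cell leukaemias, had 6.80 kb (5.90%), and neither H3K4me1 nor H3K4me3 covered its start. The genes that follow belong to the T-cell receptor and surface list. Of the recombination genes, Rag2 had 94.1 kb (87.3%) and Rag1 83.1 kb (74.7%), which share the segment of 108.0 kb. Il7r, on chromosome 15, had 94.2 kb (76.1%), and the control density in the segments of its window was 33.9 reads per kb. Dntt, the template-free polymerase of antigen receptor joining, had 61.8 kb, and Ptcra, the pre-T-cell receptor alpha chain, 24.9 kb.

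Tcf7, the target of Notch1 that encodes TCF-1, showed the gap at a start at large scale. Its window had 4 segments and 105 kb of coverage (76.9%). Before the start lay 35.6 kb and 32.2 kb of H3K4me1 with folds of 4.33 and 4.77, and the nearer one ended 1.62 kb before the outermost annotated end of the gene. After it, a segment of 45.4 kb began at 5.18 kb with a fold of 2.68, followed by one of 12.0 kb with a fold of 3.07. The stretch without H3K4me1 over the start was the widest one between these segments.

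**Figure D3:**
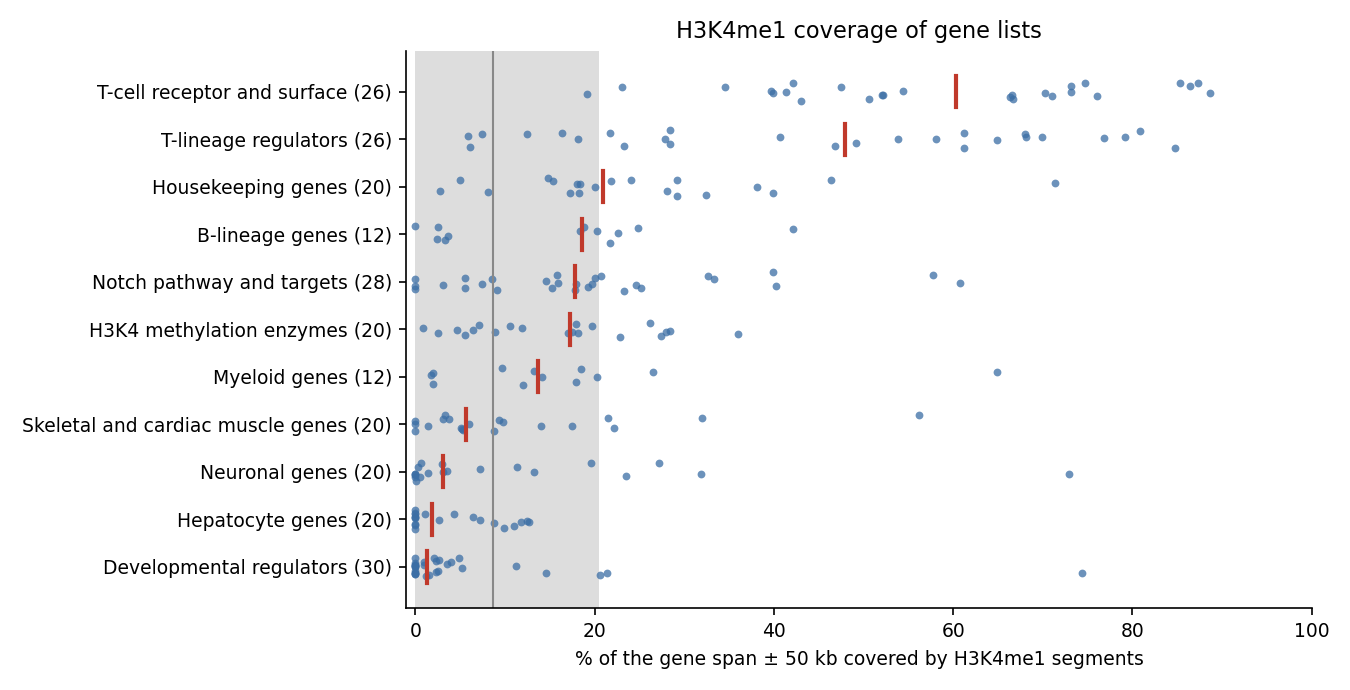
Percent of the window (gene span with 50 kb on either side) covered by H3K4me1 for each gene of the 11 lists; each point is a gene, the red bar is the median of the list, the grey line is the median of all 21887 genes and the grey band runs between their quartiles. The medians of the T-cell receptor and surface list (60.3%) and of the T-lineage regulators (48.0%) stand above the upper quartile of all genes (20.5%).

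Notch pathway genes had less H3K4me1 than the T-lineage genes. Of 28, 25 had a segment within 50 kb, 14 had one over an end and 2 had at least 50% of the window covered. The shares over all genes were 74.1%, 23.8% and 2.49%. The Notch list had a median of 25.2 kb, or 17.8% of the window, against 11.6 kb and 8.64% over all genes. The pathway genes were mixed in their other marks too: H3K4me3 covered an end of 20, the library labelled H3K27me3 of 13 and the library labelled H3K27ac of 15, against backgrounds of 46.6%, 43.1% and 18.9%. Among receptors, Notch1 had 23.1 kb in 9 segments (15.8%) and Notch3, itself a Notch1 target in T cells, 30.2 kb. Among ligands, Jag1 had no segment in its window. Rbpj had 39.8 kb and Zmiz1 55.3 kb (17.9%).

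At Notch1 the segments were narrow. They ran from 1.4 to 5.4 kb with folds of 1.70 to 3.83, and the window held 7 Rbpj summits and 0 HA-Zmiz1 summits. The control density in the segments of the window was 19.4 reads per kb at Notch1 and 20.5 at Zmiz1, against a list median of 22.9. The retroviruses carry parts of these genes, and within those parts reads from the provirus and from the gene cannot be told apart.

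Targets of the pathway differed widely. Hes1, the repressor induced by Notch in most tissues, had no segment within 50 kb, the nearest lying 107.8 kb away, and 44.0 kb of its window was under the library labelled H3K27ac. Hey1 had none either. Dtx1, a ubiquitin ligase target, had 2 segments and 9.80 kb, one of 7.4 kb at 20.1 to 27.5 kb after the start with a fold of 3.68, 2 Rbpj summits, 1 HA-Zmiz1 summit and 2 ICN1 summits, and one of 2.4 kb. Nrarp, a feedback inhibitor, had 20.6 kb in 8 segments, the one over its start 4.0 kb wide with a fold of 2.20. Of the 20.6 kb at Nrarp, 7.20 kb was in the upper 50% of segments by fold. Igf1r had the most, with 232 kb in 32 segments, and its widest were 36.6 and 32.0 kb. Ccnd3 (cyclin D3) had 112 kb and Fbxw7, the ligase that degrades active Notch1, 105 kb.

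Myc, the oncogene that Notch1 induces in T-cell leukaemia, had 35.0 kb in 7 segments (33.3%). Their folds were low, from 1.40 to 1.87, and the segments together had 42.6 H3K4me1 and 30.7 control reads per kb. None of this length was in the upper 50% of segments by fold. The gene is on chromosome 15, where control density was high throughout.

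Enzymes of H3K4 methylation had a median of 17.2% of the window covered, against 8.64% over all genes. All 20 had a segment within 50 kb and 0 had at least 50% of the window covered, against 74.1% and 2.49% over all genes. A segment lay over an end of 4 of the 20, near the background of 23.8%. Kmt2c had 64.4 kb in 21 segments (19.7%), Kmt2d 39.1 kb (27.4%) and Kmt2a, the MLL1 enzyme, 64.0 kb (36.0%). Kmt2d lies on chromosome 15, and its segments had 35.4 control reads per kb. In the upper 50% of segments by fold, Kmt2c had 16.6 kb and Kmt2d 13.4 kb. Kdm5c, an H3K4 demethylase encoded on chromosome X, had 1.20 kb. H3K4me3 covered an end of 17 of these 20 genes, against 46.6% over all genes. Of 16 matched starts, 12 lay under H3K4me3 with H3K4me1 within 5 kb.

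Housekeeping genes had a median of 20.9% of the window covered, against 8.64% over all genes. All 20 had a segment within 50 kb and 9 had one over an end, and H3K4me3 covered an end of 19. The backgrounds over all genes were 74.1%, 23.8% and 46.6%. Hsp90ab1 (a cytosolic chaperone) had 75.3 kb, Tuba1b (alpha tubulin) 47.8 kb and Actb (beta actin) 41.8 kb. Tuba1b lies on chromosome 15, and its segments had 35.2 control reads per kb. Pgk1, a glycolytic enzyme encoded on chromosome X, had the least with 3.20 kb.

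Genes of other blood lineages had median covered shares of 18.6% (B cell) and 13.7% (myeloid), against 8.64% over all genes. Among 12 B-cell genes, 11 had a segment within 50 kb and 4 had one over an end, against backgrounds of 74.1% and 23.8%. Pou2af1, a coactivator of B cells, had 53.2 kb. Blnk, an adaptor of the B-cell receptor, had 41.0 kb, and 88.3% of that length also lay in the window of Dntt. Pax5, the commitment factor of B cells, had 7.10 kb in a long window (2.48%), and Ms4a1 (CD20) had none. Among 12 myeloid genes, all had a segment within 50 kb and 1 had one over an end. Itgam, an integrin of myeloid cells, had 101 kb (64.9%), of which 49.1% also lay in the window of Itgax, another myeloid integrin, and Cebpa, the granulocyte factor, had 1.80 kb.

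Genes of tissues outside blood had median covered shares under the 8.64% of all genes, while their counts of genes with a segment were partly near the backgrounds of 74.1% within 50 kb and 23.8% over an end. Developmental regulators had a median of 1.34% covered, with 18 of 30 within 50 kb of a segment and 2 of 30 with one over an end, while 26 had an end under the library labelled H3K27ac. Hoxa9, a homeobox gene, had a single segment of 1.0 kb, 21.6 kb from the gene, and 85.7 kb under the library labelled H3K27ac. Gata4 had 25.2 kb of H3K4me1 beside 88.6 kb of the library labelled H3K27ac. Of 20 hepatocyte genes, with a median of 1.84%, 11 had a segment within 50 kb and 3 had one over an end, Alb had none, and the highest share was 12.7%. Muscle genes, with a median of 5.64%, had 17 of 20 within 50 kb and 5 over an end, with Ryr2 at 114 kb in a long window (17.4%), Mylpf at 59.2 kb and Myh1 at none. Neuronal genes, with a median of 3.05%, had 16 of 20 and 6, with Camk2a at 119 kb, Map2 at 86.2 kb and Syt1 at none.

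**Figure D4:**
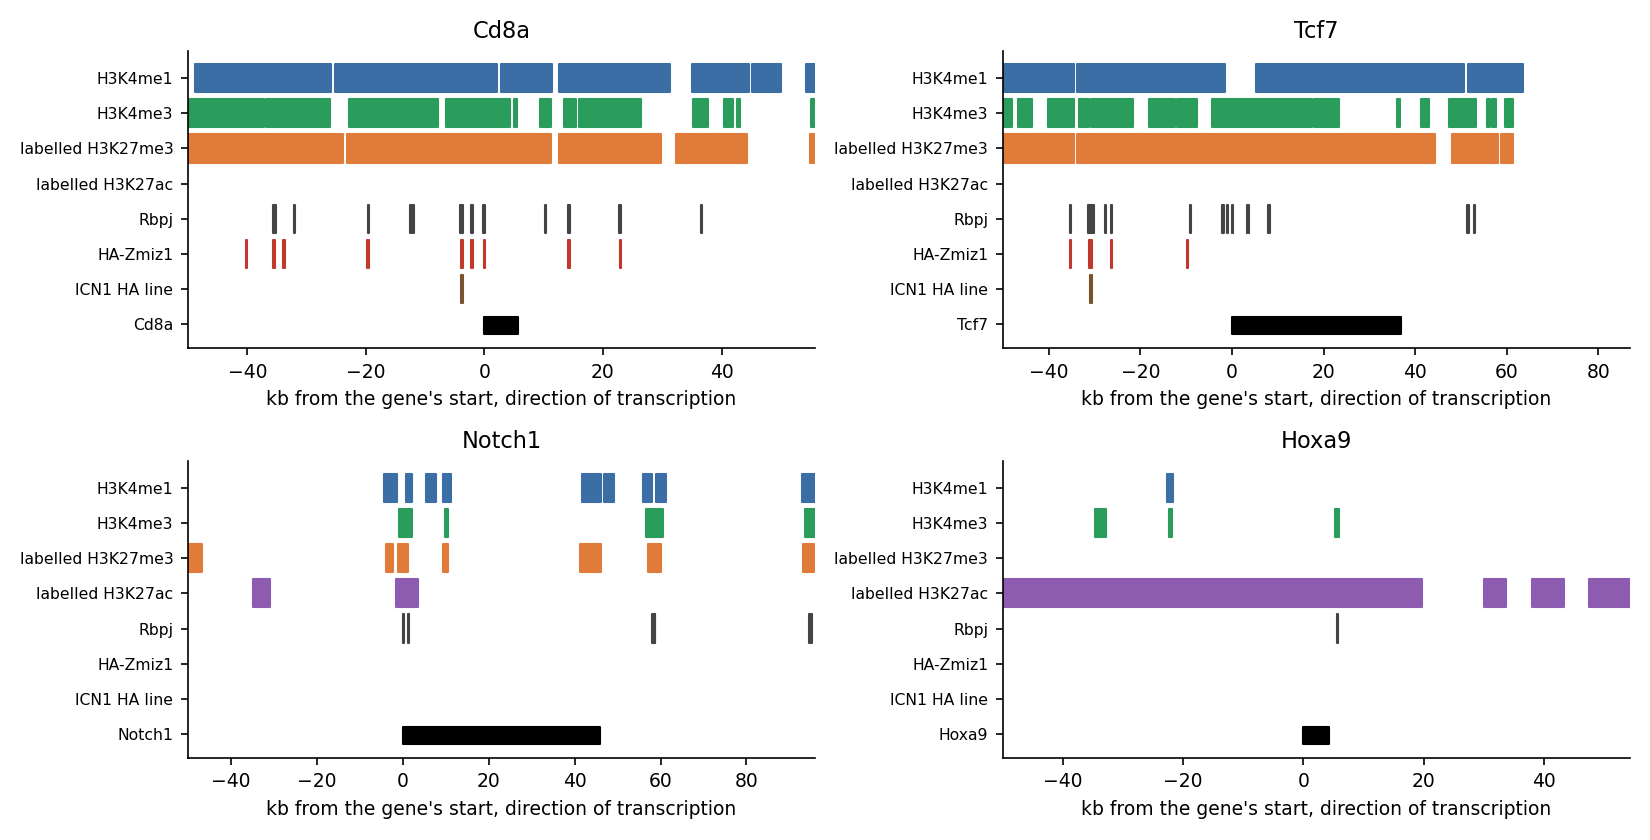
Segments and peaks of 7 libraries around Cd8a, Tcf7, Notch1 and Hoxa9, drawn in kb from the start of the gene in the direction of transcription, with the gene as a bar. Cd8a and Tcf7 carry wide H3K4me1 segments (88.7% and 76.9% of the window), Notch1 carries 9 narrow ones, and Hoxa9 carries 1 of 1.0 kb beside 85.7 kb of the library labelled H3K27ac.

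Chromosomes 15 and X stood apart from the rest. On chromosome 15, H3K4me1 covered 12.1% of the sequence, the median segment was 4.0 kb wide and 84 segments reached 20 kb, while the median fold was 1.98 and the median control density 31.0 reads per kb. On the other 18 autosomes the covered share ran from 5.58 to 11.7%, the median width from 2.6 to 3.0 kb, the fold from 2.36 to 2.49 and the control from 22.2 to 23.3 reads per kb. A segment covered an end of 42.3% of the genes of chromosome 15, against 19.7 to 32.9% on those autosomes. Chromosome X had 632 segments, 1.22% covered, a fold of 3.81 and a control density of 13.1, and a segment covered an end of 3.62% of its genes. Chromosome Y had 3 segments. High control density came with high coverage, wide segments and low fold on chromosome 15, and the reverse held on X. The part of the number of reads from a chromosome in those values was not tested.

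**Figure D5:**
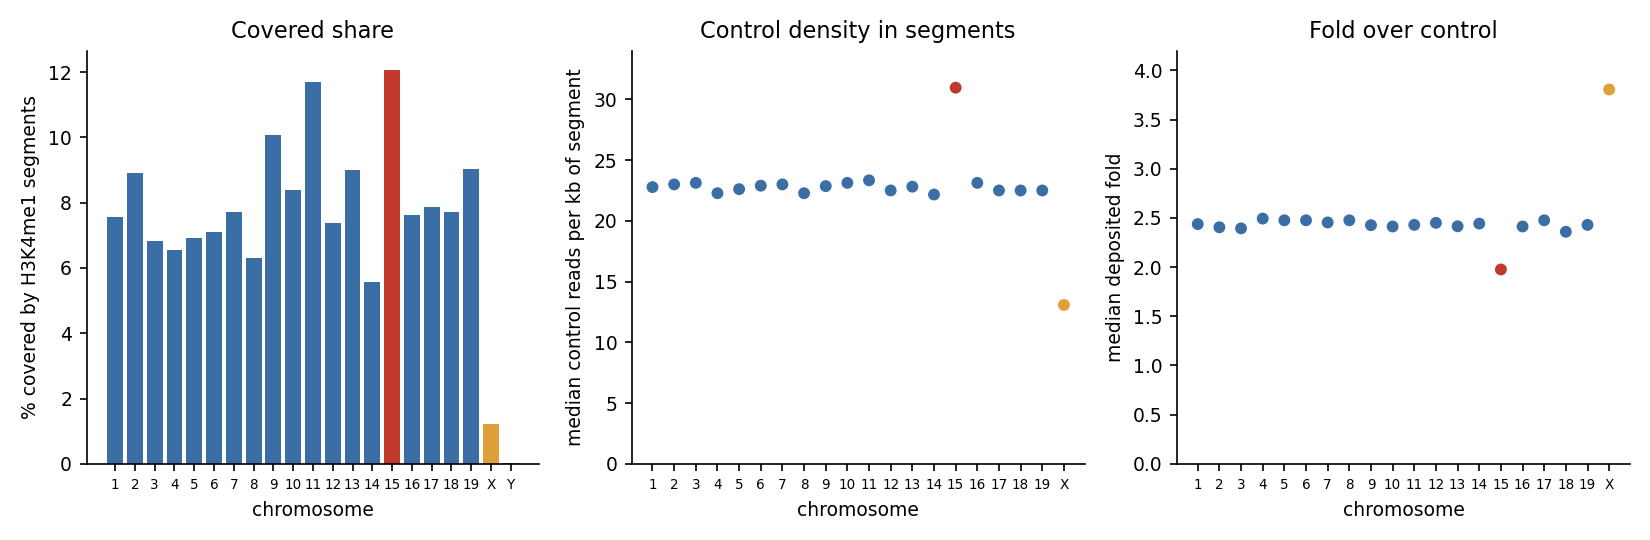
Percent of each chromosome covered by H3K4me1, median control reads per kb of segment and median fold by chromosome, with chromosome 15 in red and X in orange (Y is left out of the last panels). Chromosome 15 has a control density of 31.0 and a fold of 1.98, X has 13.1 and 3.81, and the other autosomes lie between 22.2 and 23.3 and between 2.36 and 2.49.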

How the data were processed

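H3K4me1 ChIP-seq of 1 library was described with the other lists of the same series. Per the submitters' processing notes, Bowtie 0.12.7, FastQC 0.10.0, MACS2 2.0.10, SICER 1.1 and HOMER 4.2 were used with the mm10 build. The settings of the segment caller are not given in the sources used here, apart from what the files show: widths are multiples of 200 bp, as a caller working in such windows gives, and the highest false discovery rate is 0.001. Each segment has deposited counts of ChIP and control reads, a deposited fold (the ratio to the scaled control) and a deposited p-value with its false discovery rate. The deposited peak lists of Rbpj, HA-Zmiz1 and ICN1 give a pileup signal, a fold and a -log10 p, of which only the positions of peaks and summits were used. Per the factor file headers, MACS 2.0.10.20120913 made them.

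Gene spans came from the RefSeq gene table of mm10, starts and strand from the RefSeq promoter table (for each gene the outermost of the starts it lists, which can lie inside the gene span). Overlap meant at least 1 bp. Named genes were the 10 with the most covered length and the 10 with the highest covered share, those at the 10 widest and the 10 densest segments of at least 1 kb, a panel of 30 genes, and in each list the 3 members with the most and the member with the least covered length. Other list members named, and the promoters printed, were chosen after their values were seen. The members and lists were chosen with earlier results of these data known. With 1 library there is no test: shares carry 95% binomial intervals. Arithmetic used Python 3.11.15 with numpy 2.4.6, pandas 2.3.3, scipy 1.17.1 and matplotlib 3.10.9, and the counting code was tested on simulated segments. Alternatives were upper 50% by fold, a false discovery rate of at most 1e-10, minimum width, control limits, joined segments, windows of 5 and 200 kb, fewer genes, midpoints, a 50% overlap and, added after seeing the data, leaving out chromosomes 15 and X and changes to the start classes. Reads outside segments and depth of the libraries were not analysed here. Some list members that the rule names are not reported here.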

Additional observations from a re-analysis of the deposited data

How the results depend on the processing

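No paired analysis was possible because each target has 1 library in a line, so the number that all samples share pairs no replicates. Of the values that answer a comparison, 135 stayed within their counting interval, or within 1.5 times for counts, and 44 moved. Joining neighbours, segments of at least 1 kb and the control limits are among the settings that moved none beyond that. Keeping the upper 50% of segments by fold left 23075 segments and 120 Mb. Genes within 50 kb were then 67.0% and genes with an end covered 11.8%, and the overlaps were 67.5% with H3K4me3, 77.2% and 5.50% with the libraries labelled H3K27me3 and H3K27ac, and 25.5% with Rbpj. Lists with an end covered came to 7 for Notch genes, 0 developmental, 1 housekeeping and 3 muscle. Chromosome 15 then had 0.933 times the covered share of the other autosomes in place of 1.57 times, and X 0.245 in place of 0.159, and starts under both marks were 9.52% of the H3K4me3 starts. A false discovery rate of at most 1e-10 gave 70.3% of genes within 50 kb, 17.8% with an end covered and 42.6% of segments within 5 kb of an end. Overlaps were then 65.4%, 78.3%, 5.76% and 24.4% in the same order, developmental genes 10 within 50 kb and 1 over an end, and starts under both marks 17.6%. Within 5 kb in place of 50 kb, 60.8% of genes had a segment, and 6 myeloid, 10 developmental, 10 muscle, 10 neuronal and 4 hepatocyte genes. Within 200 kb these were 84.2% of genes and 17 hepatocyte genes. Without predicted and receptor genes, 82.1% of genes had a segment within 50 kb and 26.7% over an end. Midpoints put 35.4% of segments within 5 kb of an end, against 41.1% by edges. Requiring 50% of the segment gave overlaps of 24.8%, 47.5%, 5.28% and, by construction for narrow peaks, 0 for Rbpj. Control reads subtracted left a median of 25.7 reads per kb. Without chromosomes 15 and X the values were 75.4% of genes and 6.87% with the library labelled H3K27ac, and the stronger H3K4me3 segments gave 24.3% of starts. The groups poorest and richest in CpG kept their order: 24.5% and 3.25% for the upper 50% by fold, and 36.4% and 6.37% under the stricter rate. With starts within 100 bp of the end of the gene span alone, they were 46.9% and 8.33%, and starts under both marks 24.8%. Covered lengths of single panel genes moved beyond 1.5 times in 18 cases and stayed within it in 98. In the upper 50% by fold, Kmt2c had 16.6 kb, Kmt2d 13.4, Il7r 58.8, Ptcra 13.6, Lef1 69.4, Bcl11b 50.4, Gata3 19.0, Satb1 47.1, Notch1 14.1, Notch3 16.6, Nrarp 7.20, Zmiz1 34.7, Rbpj 26.4 and Myc 0. Under the stricter rate, Kmt2c had 35.8 kb, Zmiz1 34.9, Myc 21.2 and Hoxa9 0. Segments of fold under 2 rest on control counts that 1 library cannot replicate.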

Other observations

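A long marked stretch lay downstream of Myc, between it and Gsdmc, where no other protein-coding gene of the table lies. It ran over 1786 kb and held 91 segments with 840 kb covered, or 47.1%, at a median fold of 1.89. The 2 segments with an ICN1 summit had the highest and the third highest fold of the 91. At 1255 kb after Myc a segment of 26.4 kb had 131 H3K4me1 and 41.9 control reads per kb and a fold of 3.87, and at 1282 kb one of 36.8 kb had 120 and 41.0 reads per kb and a fold of 3.64, with 4 Rbpj and 4 HA-Zmiz1 summits. A Notch1-bound enhancer of Myc is known far downstream in T-cell leukaemia. These segments were chosen after their values were seen.

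Otx2, a homeobox gene of the brain, went against its list. Its window held 82.5 kb of H3K4me1 in 13 segments, or 74.4%, against a median of 1.34% for developmental genes, and the library labelled H3K27ac covered 0 kb. The widest of them, 25.2 kb, ran from 61.0 to 35.8 kb before the start, in part outside the window. Its fold of 3.26 was the highest of the 13, and the lowest was 1.39. A start was matched for 20 of the 30 developmental genes. Among these, Lhx2, with 26.8 kb, was the one whose start lay under both H3K4me1 and H3K4me3.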
